A study of Mus musculus with 36 samples.

Results

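The proteasome subunit genes were followed in fractured and intact femora of wild-type (WT) mice and of mice lacking recombination activating gene 1 (RAG1-/-), which form no mature T and B cells. The members are all array probes whose gene symbol begins with Psma, Psmb, Psmc, Psmd or Psme and a digit, with the immunoproteasome genes Psmb8 and Psmb9 left out. That rule gave 58 probes of 39 genes among 25697 probes. Male C57BL/6N mice, WT or homozygous for the Rag1 knockout, were 8 weeks old. Intact femur (D0) and fracture callus with 1 mm of adjoining bone at D3, D7, D14, D21 and D28 were studied, which gives 12 groups by genotype and day. RNA of 5 mice was pooled for each group, and every pool was run on 3 Illumina MouseRef-8 v2 arrays. The 3 arrays of a group are therefore technical replicates. P-values at a single day reflect the spread of arrays within pools, taken for each probe over all 12 groups, not that of mice. A noisy group thus weighs on the comparisons of the other groups. Both genotypes had a pinned fracture of the femur, and the unfractured D0 pool is the reference of each genotype.

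The proteasome degrades proteins that carry ubiquitin chains. Its core particle is a barrel of stacked rings, with outer rings of alpha subunits (Psma genes) that gate the entry and inner rings of beta subunits (Psmb genes), among which Psmb5, Psmb6 and Psmb7 hold the active sites. The regulatory particle caps the barrel, with a base of ATPases (Psmc genes) that unfold the substrate and a lid (most Psmd genes) that removes ubiquitin, while the Psme genes encode other caps. In immune cells and under interferon gamma, Psmb8, Psmb9 and Psmb10 replace the constitutive catalytic subunits and form the immunoproteasome.

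Values are log2 intensities after quantile normalization by the authors, so a difference of 1 is a 2-fold difference relative to the other probes of the array. Of the 58 probes, 42 probes of 32 genes had a mean over all 36 arrays above 4.72, the median of all probes, and were tested with limma among 12848 such probes. The tested set holds 15 core probes of 11 genes, 16 regulatory particle probes of 14 genes, 2 probes of Psmb10, 3 probes of the base assembly chaperone Psmd10, 5 probes of activator genes and 1 probe of Psmc3ip, a recombination cofactor that only shares the letters of the rule. The 16 probes left out had means of 4.35 to 4.70, and for Psma1, Psma3, Psma6, Psmc6, Psmd2, Psmd5 and Psmd9 no probe was tested. A tested member had only to be bright on average, and members may have passed through the groups in which they were high.

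Rag1 itself read near the floor of the arrays, at 4.34 to 6.80 in single WT arrays and 4.40 to 4.90 in single RAG1-/- arrays, and passed the test at none of the 6 days. Where this probe lies relative to the deleted part was not known here, so it checks no label. Within groups, arrays correlated at 0.983 to 0.995 in RAG1-/- and 0.885 to 0.950 in WT, where only replicates 2 and 3 of WT D14 were closer, at 0.994. The arrays labelled WT D14 replicates 2 and 3 had their highest mean correlation with RAG1-/- D21, at 0.983, against 0.949 to 0.950 with WT D14 replicate 1. The main D14 counts and genotype differences are therefore given with and without them. The F test, the marker levels and other values that involve WT D14 are given with all arrays only. Their erythroid marker means of 6.90 and 6.85 lay within the 5.87 to 7.12 of RAG1-/- arrays, and that of replicate 1 was 8.92. The WT arrays of D3 and D7 stood apart on the first principal component, which held 38.5% of the variance. The median SD of the tested members between arrays was 0.12 to 0.24 in WT groups and 0.08 to 0.13 in RAG1-/- groups. All 8 osteoblast markers were tested, and their mean level was 8.60 to 11.2 over the groups, although Phex read 4.38 to 4.51 in WT at D0, D3, D7 and D28, under the median of all probes. Of the lymphocyte markers, 2 of 8 T cell markers and 1 of 8 B and plasma cell markers were bright enough to be tested. Mean levels of 8 erythroid markers were 7.56 to 10.3 in WT groups and 5.91 to 7.08 in RAG1-/- groups, with 6 of 7 tested markers lower in RAG1-/- at D3 and at D7. Mean levels of 8 skeletal muscle markers were 10.6 and 10.8 in WT at D3 and D7 and were 11.7 to 12.8 in the other 10 groups. Of these markers, Mylpf went in WT from 14.27 at D0 to 4.80 at D3 and 5.04 at D7 and weighs heavily on those means. The median change of the 8 markers against D0 was -1.12 at D3 and -0.84 at D7. The part of these cells in the results below was not tested. In such bulk samples, fewer cells of a type and less RNA per cell cannot be told apart.

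**Figure D1:**
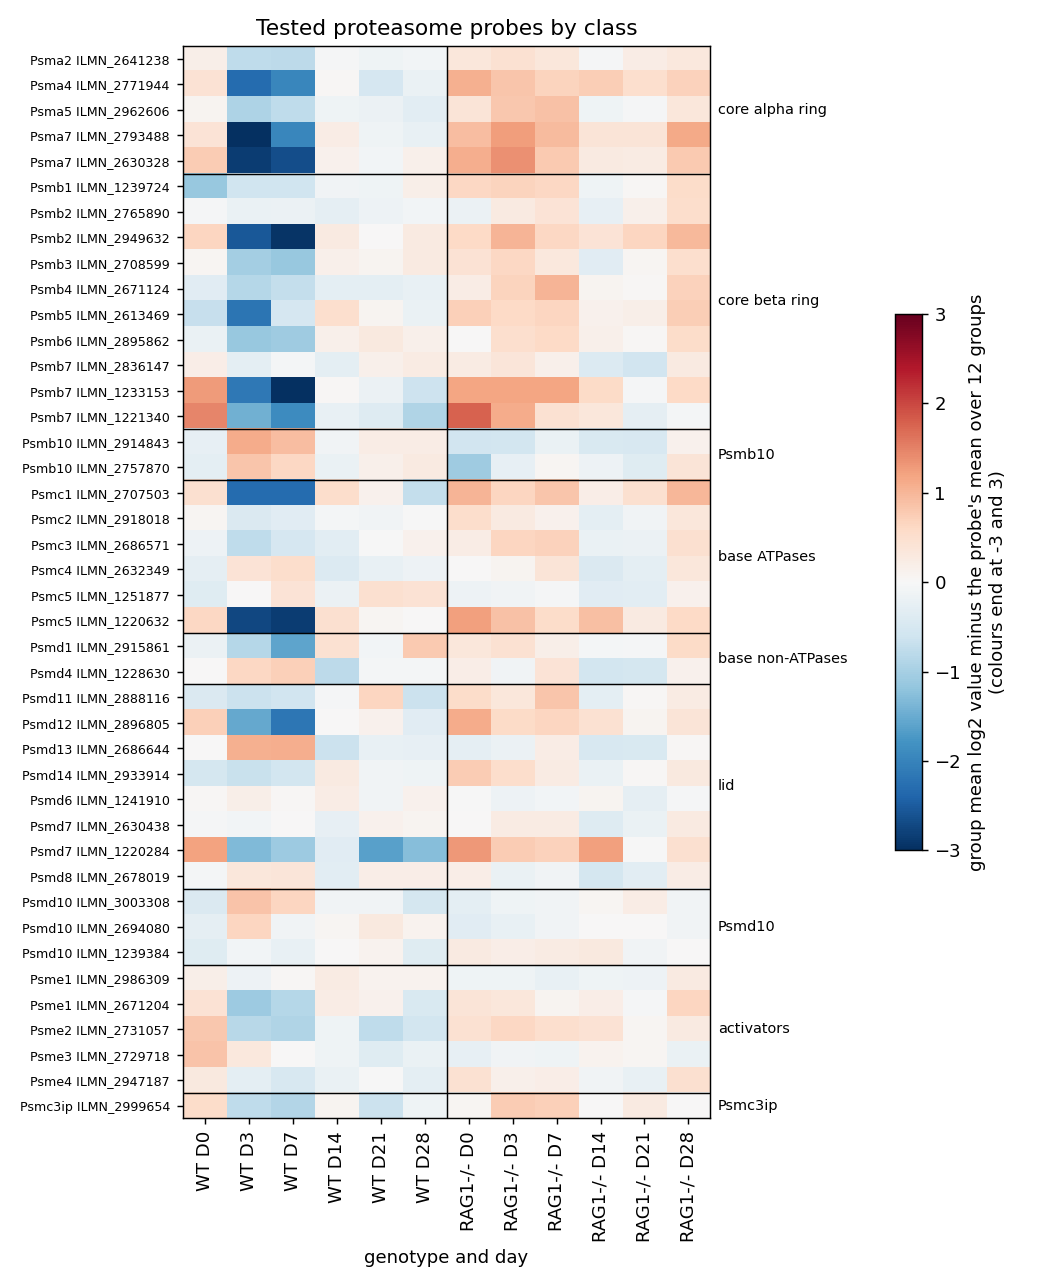
Group mean log2 value of each of the 42 tested probes minus its mean over the 12 groups, ordered by class (rows) and by genotype and day (columns), with red above and blue below that mean. The darkest blue cells are core, ATPase and lid probes in WT at D3 and D7, where Psmb10, Psmd4, Psmd13 and a Psmd10 probe are red.

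The genotypes were compared first at D3 and D7, where the core subunits stood furthest apart. At D3, 29 tested members were higher and 9 lower in RAG1-/- than in WT, against 26.9% and 21% of all tested probes, so that 38 of 42 members (90.5%) differed against a background of 47.9%. All 15 core probes were higher, by a median of 1.74, where the median of all tested probes was 0.00. At D7, 24 members were higher and 7 lower (background 27.4% and 19.3%, or 46.7% in either direction), and 13 of 15 core probes were higher, by a median of 1.68. Among the 16 regulatory particle probes, 10 were higher and 4 lower at D3, with a median of 0.84, and 8 were higher and 4 lower at D7, with a median of 0.63. With the brightest probe of each gene alone, that with the highest mean over all 36 arrays, WT D3 and D7 included, the medians were 1.63 for 11 core genes and 0.51 for 14 regulatory particle genes at D3, and 1.45 and 0.35 at D7. Since the members were chosen with earlier results of these data known, no test of core against regulatory particle was made, and these medians are a description.

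Averaged over the core probes, each centred on its mean over the 36 arrays, WT arrays read -1.55, -1.56 and -1.41 at D3 and -1.36, -1.28 and -1.43 at D7. The RAG1-/- arrays read 0.83, 0.80 and 0.71 at D3 and 0.61, 0.69 and 0.63 at D7. No WT array reached a RAG1-/- array at these days, and the other 4 WT days lay between -0.16 and 0.32 in single arrays. Regulatory particle probes averaged -0.50, -0.58 and -0.55 in WT at D3 against 0.28, 0.28 and 0.32 in RAG1-/-, so the genotypes were apart in the regulatory particle as well, by less. The 2 classes also differed in brightness. The regulatory particle probes of Psmd14, Psmd11 and Psmd6 averaged 4.47, 4.84 and 4.91 in WT at D0, near the floor, and could fall little. The dimmest core probe there, that of Psmb5, averaged 6.04. How far brightness shaped the gap between the classes was not tested. The core minus regulatory particle difference was -0.96 ± 0.10 in WT at D3 and -0.80 ± 0.11 at D7 (SD, n = 3 arrays), and -0.05 to 0.49 in the other 10 groups. Skeletal muscle markers moved in the same direction, with 8 of 8 lower in WT at D3 than at D0 and 6 of 8 higher in RAG1-/- than in WT at D3, while at D7 7 of 8 were lower in WT than at D0, and 4 were higher and 1 lower in RAG1-/- than in WT. Their part in the core values was not tested.

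**Figure D2:**
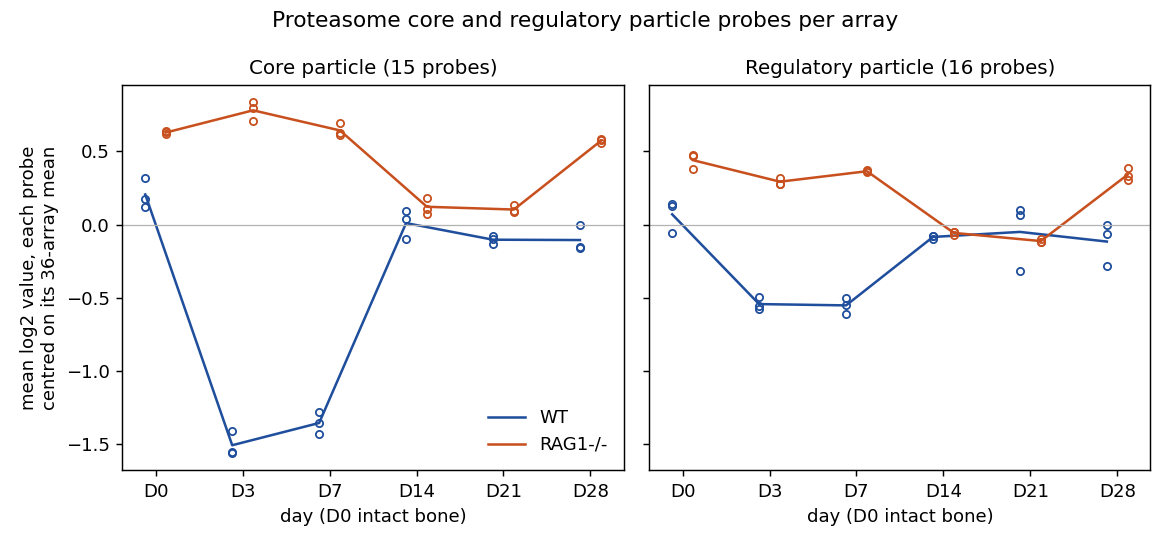
Mean log2 value per array of the 15 core probes (left) and the 16 regulatory particle probes (right), each probe centred on its mean over 36 arrays, against day, with circles for the 3 arrays of a group and lines through the group means. Core values in WT fall from 0.21 at D0 to -1.51 at D3 and -1.35 at D7, while the RAG1-/- means lie between 0.10 and 0.78 at all days.

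In the alpha ring, which opens and closes the barrel, all 5 tested probes were higher in RAG1-/- at D3 and at D7. The largest difference belonged to Psma7. Its probe ILMN_2793488 read 5.22, 4.51 and 4.64 in WT at D3 and 9.49, 9.42 and 9.26 in RAG1-/-. These WT arrays lay close to the floor, and the groups did not overlap, with a difference of 4.60 (SE 0.24, adjusted p = 2.08e-15). Its other probe, ILMN_2630328, read 4.89, 5.18 and 4.68 in WT and 9.31, 9.16 and 8.93 in RAG1-/- at D3, a difference of 4.22 (SE 0.21, adjusted p = 1.41e-15). At D7 this probe read 5.06, 4.45 and 5.77 in WT and 8.50, 8.68 and 8.47 in RAG1-/- (3.46, SE 0.21, adjusted p = 1.41e-13), and no RAG1-/- array came near a WT array on either Psma7 probe. Psma4 read 7.37, 7.25 and 7.17 in WT and 10.37, 10.28 and 10.53 in RAG1-/- at D3, again without overlap (3.13, SE 0.18, adjusted p = 1.42e-14). For Psma2 and Psma5, which were well above the floor in all groups, the differences at D3 were 1.22 and 1.74 with adjusted p of 4.12e-10 and 5.74e-14.

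The beta ring holds the active sites. Psmb6, the caspase-like subunit, read 8.85, 8.95 and 8.96 in WT at D3 and 10.56, 10.69 and 10.42 in RAG1-/-, and 8.95, 9.06 and 8.93 against 10.67, 10.65 and 10.68 at D7. All WT arrays lay below all RAG1-/- arrays at both days, by 1.64 (SE 0.12, adjusted p = 4.79e-12) and 1.68 (SE 0.12, adjusted p = 3.36e-12). Psmb5, the chymotrypsin-like subunit, was near the floor in WT at D3, at 4.61, 4.54 and 4.51, against 7.55, 7.39 and 7.07 in RAG1-/-. Its difference at D3 was 2.79 (SE 0.50, adjusted p = 3.19e-05), while at D7 WT arrays read 4.38, 7.16 and 7.16 and RAG1-/- arrays 7.21, 7.61 and 7.35. At D7, 1 WT array was at the floor and the other 2 were just below the RAG1-/- arrays, and D7 did not pass the test (adjusted p = 0.0574). Psmb7, the trypsin-like subunit, has 3 probes that differ widely and are described with the other genes of several probes. Psmb1, Psmb3 and Psmb4, which build the ring without an active site, were higher in RAG1-/- by 1.27, 1.63 and 1.53 at D3.

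Promoter windows from RefSeq (build GRCm38.p6, here the 250 bases before a gene's start) were matched by symbol for 34 of the 39 genes, with 37 windows, and not for Psmb1, Psmb2, Psmb7, Psmc3 and Psmd7. They were searched on both strands for TGACNNNGC, the core of the antioxidant response element to which the proteasome gene regulator Nfe2l1 binds. It stood in 5 of 37 member windows (13.5%), those of Psmb5, Psmb6, Psmc6, Psmd9 and Psmd12, against 10.2% of all 32851 windows. CCAAT, a common promoter element, stood in 13 (35.1%) against 33.8% of all windows, and in 6 of the 12 core windows. The motif GAAA repeated after 2 free bases, found in interferon-stimulated promoters, stood in 3 (8.11%), those of Psmb3, Psmd4 and Psmd9, against 2.98%, and no member window held overlapping matches of different motifs. The windows of 3 genes are shown, for the 2 active-site genes with a match of TGACNNNGC (capitals) and for Psma7, the gene with the largest difference at D3, with its match of CCAAT (capitals). A match is a description of the letters, not a binding site.
Psmb5, chr14:54617996-54618245, minus strand: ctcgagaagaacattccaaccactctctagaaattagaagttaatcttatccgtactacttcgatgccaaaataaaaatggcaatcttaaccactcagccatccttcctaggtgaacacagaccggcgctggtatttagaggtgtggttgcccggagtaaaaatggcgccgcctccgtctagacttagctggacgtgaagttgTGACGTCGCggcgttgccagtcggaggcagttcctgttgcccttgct
Psmb6, chr11:70525107-70525356, plus strand: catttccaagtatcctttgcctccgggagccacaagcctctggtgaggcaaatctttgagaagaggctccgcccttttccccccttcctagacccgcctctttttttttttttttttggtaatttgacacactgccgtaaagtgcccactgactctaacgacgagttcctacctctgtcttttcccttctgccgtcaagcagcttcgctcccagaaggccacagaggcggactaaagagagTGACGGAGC
Psma7, chr2:180042465-180042714, minus strand: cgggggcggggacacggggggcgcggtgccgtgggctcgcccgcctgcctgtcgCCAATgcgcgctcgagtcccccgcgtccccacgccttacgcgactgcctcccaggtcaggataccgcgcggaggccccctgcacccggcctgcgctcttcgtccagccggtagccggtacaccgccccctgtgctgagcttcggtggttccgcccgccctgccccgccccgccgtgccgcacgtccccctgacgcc

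Psmb10, the inducible subunit that takes the place of Psmb7 in the immunoproteasome, went the other way. Its probe ILMN_2914843 read 8.77, 8.68 and 8.84 in WT at D0, 10.10, 10.00 and 10.24 at D3 and 9.75, 10.17 and 9.86 at D7. In RAG1-/- the arrays read 8.42, 8.45 and 8.44 at D0, 8.70, 8.14 and 8.52 at D3 and 8.76, 8.87 and 8.79 at D7. WT was the higher genotype at D3 and D7 in every array, and RAG1-/- minus WT was -1.66 (SE 0.16, adjusted p = 7.21e-10) at D3 and -1.12 (SE 0.16, adjusted p = 9.84e-07) at D7. Its second probe, ILMN_2757870, read 9.72, 9.77 and 9.79 in WT and 8.73, 8.53 and 8.76 in RAG1-/- at D3. It was lower in RAG1-/- by the same test at D0, D3, D7 and D21, with log2 differences of -0.77, -1.09, -0.58 and -0.52, and so was ILMN_2914843 at D21, with -0.70. Against their own D0, WT arrays rose by 1.35 (SE 0.16, adjusted p = 3.64e-08) and 1.13 (SE 0.13, adjusted p = 1.64e-08) at D3, and RAG1-/- arrays rose on ILMN_2757870 alone at D3, D7, D14 and D21 (by 0.70 to 1.11) and on both probes at D28, by 1.45 and 0.71. The 2 probes therefore differ on whether Psmb10 rose early in RAG1-/- callus. Of the other inducible subunits, which the rule leaves out, Psmb9 was lower in RAG1-/- at D3 (-1.23, SE 0.41, adjusted p = 0.0142) and Psmb8, at 4.71 to 6.12 in group means, was lower at D21 (-1.16, SE 0.43, adjusted p = 0.0496).

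**Figure D3:**
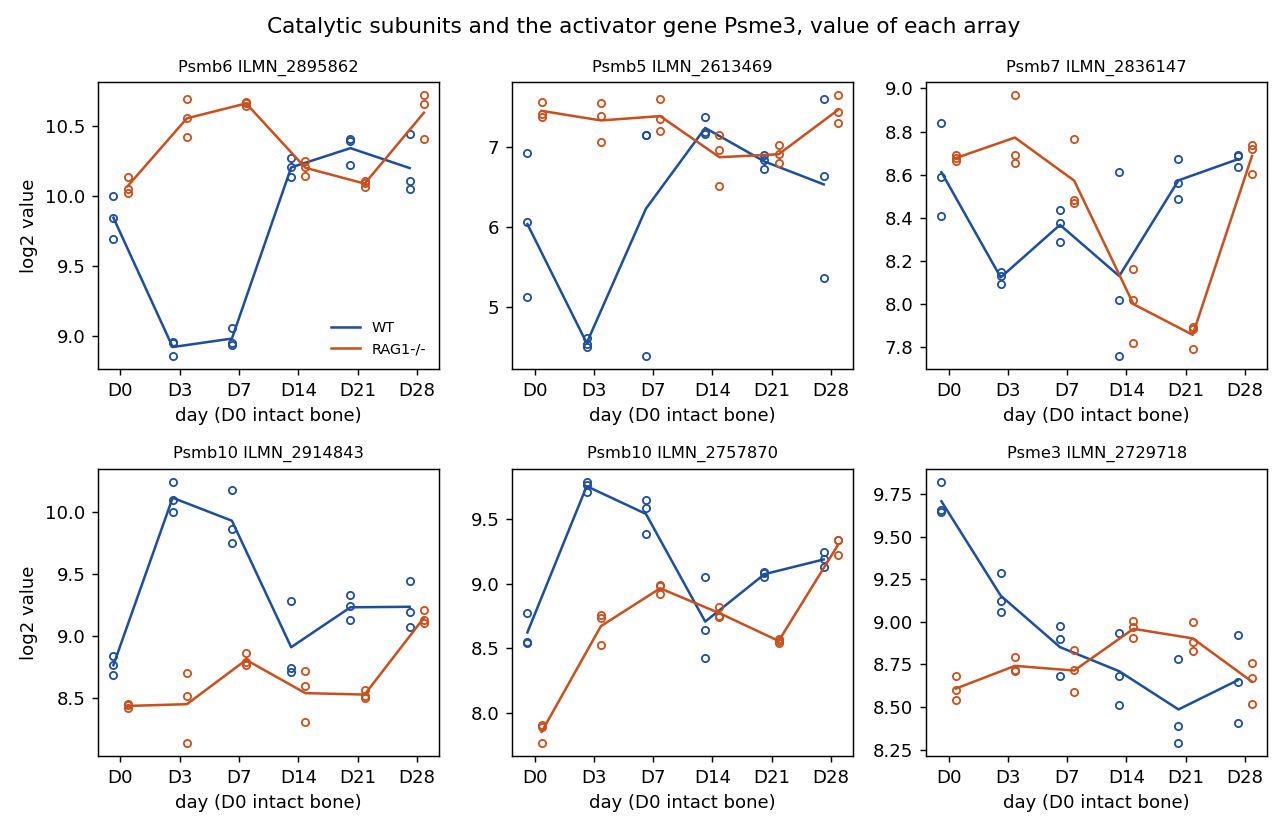
Log2 value of each array (circles) and group means (lines) against day for Psmb6, Psmb5, the brightest probe of Psmb7, both probes of Psmb10 and the activator gene Psme3, in WT and RAG1-/-, with a scale of its own for each probe. At D3 the WT arrays of Psmb6 and Psmb5 lie below and those of both Psmb10 probes above all RAG1-/- arrays.

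In the base of the regulatory particle, 4 of 6 tested ATPase probes were higher and 1 lower in RAG1-/- at both D3 and D7, the lower one being Psmc4 at D3 and a Psmc5 probe at D7. Psmc1 read 4.46, 4.26 and 4.53 in WT at D3, at the floor, and 7.61, 7.24 and 7.28 in RAG1-/-, a difference of 2.96 (SE 0.23, adjusted p = 1.36e-11). Psmc3 was bright in all groups and was higher by 1.41 at D3 and 1.19 at D7, Psmc2 by 0.69 and 0.46. Psmc4 was lower in RAG1-/- at D3, with a difference of -0.34 (SE 0.11, adjusted p = 0.0143), with WT arrays at 11.16, 11.16 and 11.21 and RAG1-/- arrays at 10.79, 10.84 and 10.89. The neighbouring groups of Psmc4 were thus apart but close. Psmd4, the base subunit that binds ubiquitin chains, differed in the same direction. It read 13.61, 13.55 and 13.53 in WT and 12.59, 12.94 and 12.95 in RAG1-/- at D3, without overlap, a difference of -0.74 (SE 0.13, adjusted p = 1.61e-05). Psmd1, the scaffold of the base, was dim and scattered in WT, at 6.54, 4.45 and 4.93 at D3, and its difference of 1.30 (SE 0.53, adjusted p = 0.0443) came from overlapping groups.

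The lid had members on both sides of 0. Psmd13, one of its scaffold subunits, read 13.53, 13.44 and 13.47 in WT at D3 and 12.03, 12.26 and 12.43 in RAG1-/-, and 13.64, 13.50 and 13.34 against 12.59, 12.68 and 12.64 at D7. It was lower in every RAG1-/- array than in any WT array at both days, with differences of -1.24 (SE 0.15, adjusted p = 6.36e-08) and -0.86 (SE 0.15, adjusted p = 2.35e-05). Psmd8 was lower as well, with -0.53 at D3 and -0.48 at D7. Psmd12 was higher by 2.11 (SE 0.54, adjusted p = 0.00202) and 2.82 (SE 0.54, adjusted p = 9.76e-05), with WT arrays scattered at 5.86, 6.56 and 4.74 at D3. Psmd14, the subunit that cuts off the ubiquitin chain, was at the floor in WT at D0, D3 and D7, and at 5.04, 5.59 and 5.93 in RAG1-/- at D3 (1.20, SE 0.34, adjusted p = 0.00474). Psmd11 was higher by 0.98 and 1.40 at the 2 days, and Psmd6 passed the test at neither.

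Psmd10, a chaperone that helps to assemble the base, lay on the same side as Psmd13 at D3 and D7. Its probe ILMN_3003308 read 9.35, 9.41 and 9.14 in WT and 8.55, 8.49 and 8.64 in RAG1-/- at D7, groups that did not overlap, with a difference of -0.74 (SE 0.16, adjusted p = 0.000269), after -1.0 (SE 0.16, adjusted p = 4.81e-06) at D3. Of its dimmer probes, ILMN_2694080 was lower at D3 alone (-0.86) and ILMN_1239384 passed between genotypes at no day. At D28 ILMN_3003308 was the higher one in RAG1-/- (0.44, adjusted p = 0.0363).

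Among the activator genes, Psme3, which encodes a cap found mainly in the nucleus, differed most in intact bone. WT arrays read 9.82, 9.65 and 9.66 at D0 and RAG1-/- arrays 8.60, 8.68 and 8.54. All WT arrays were higher, RAG1-/- minus WT was -1.10 (SE 0.14, adjusted p = 1.51e-06), and the difference was -0.41 at D3 and 0.42 at D21, where RAG1-/- was the higher genotype (adjusted p = 0.019 and 0.0347). Psme4, a cap of a single large protein, was higher in RAG1-/- at D3, D7 and D28. It read 10.02, 10.11 and 10.13 in WT and 10.76, 10.71 and 10.84 in RAG1-/- at D7, without overlap (0.69, SE 0.12, adjusted p = 1.87e-05).

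Psme1 and Psme2 encode the 2 subunits of the cap induced by interferon gamma. The brighter Psme1 probe, ILMN_2986309, read 8.31, 8.35 and 8.46 in WT and 8.38, 8.53 and 8.27 in RAG1-/- at D3. These groups overlapped, and the probe passed the test between genotypes at none of the 6 days (adjusted p = 0.942 at D3). The dimmer probe, ILMN_2671204, read 5.97, 4.70 and 6.10 in WT and 7.08, 7.05 and 6.93 in RAG1-/- at D3, a difference of 1.43 (SE 0.45, adjusted p = 0.0103). Psme2 was at the floor in WT at D3, at 4.33, 4.43 and 4.42, and read 5.86, 5.67 and 6.00 in RAG1-/- (1.45, SE 0.32, adjusted p = 0.000374). A near-identical copy of Psme2 exists in the mouse genome, and which of them the probe read cannot be told apart.

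**Figure D4:**
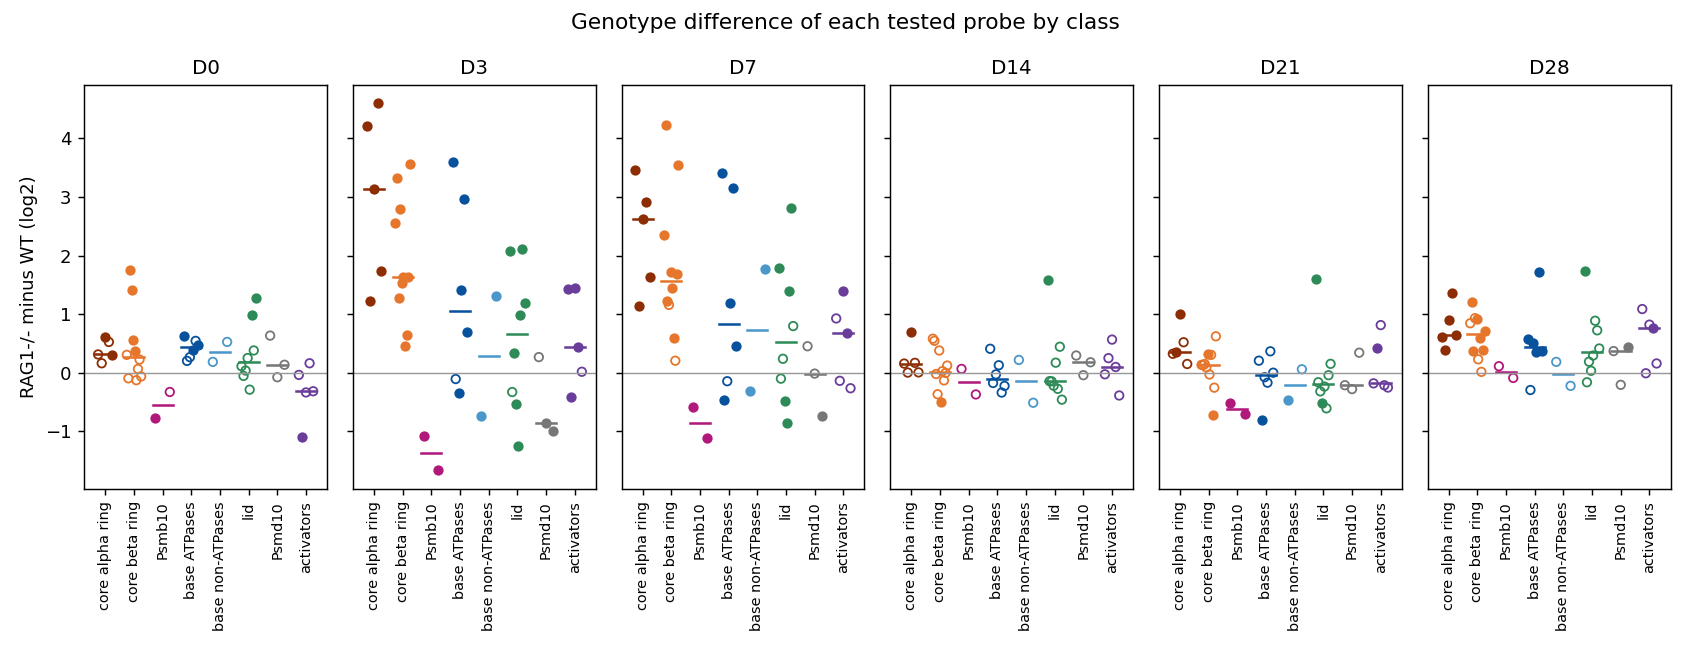
RAG1-/- minus WT difference (log2) of each tested probe of a proteasome class at each day, with filled points for an adjusted p under 0.05, open points for the rest and bars for the class medians. At D3 all 15 core points are filled and above 0 while both Psmb10 points lie below -1, and at D14 most points are open and near 0.

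Of the 32 tested genes, 8 had several tested probes, and the probes of a gene moved apart most at D3 and D7. The median absolute gap between 2 probes of a gene in the genotype difference was 1.34 at D3 and 1.37 at D7, and 0.26 at D0, over 12 pairs of probes. Psmb7 shows it: ILMN_1233153 read 9.16, 9.12 and 9.30 at D0 and 4.56, 5.63 and 4.39 at D7 in WT, while ILMN_2836147 read 8.59, 8.84 and 8.41 and 8.29, 8.38 and 8.44. The first fell to the floor and the second did not pass the test against D0 (changes of -4.34 (SE 0.43, adjusted p = 1.7e-09) and -0.24 (SE 0.16, adjusted p = 0.222)). In RAG1-/- the same probes read 9.12, 9.24 and 8.90 and 8.47, 8.76 and 8.48 at D7, so the genotype differences were 4.23 (SE 0.43, adjusted p = 3.19e-09) and 0.21 (SE 0.16, adjusted p = 0.294). The third Psmb7 probe, ILMN_1221340, was higher in RAG1-/- by 2.55 at D3 and 2.35 at D7.

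Psmb2, a beta subunit without an active site, likewise had probes of unequal difference. Its brighter probe, ILMN_2765890, read 10.54, 10.15 and 10.27 in WT and 10.80, 11.03 and 10.91 in RAG1-/- at D7, and ILMN_2949632 read 5.44, 6.54 and 5.35 and 9.28, 9.41 and 9.28. Both were lower in WT, by 0.60 (SE 0.13, adjusted p = 0.000269) on the first and 3.55 (SE 0.26, adjusted p = 7.23e-12) on the second. For the ATPase gene Psmc5, ILMN_1220632 read 4.84, 4.39 and 4.56 in WT and 8.27, 8.19 and 8.13 in RAG1-/- at D3, while ILMN_1251877 read 10.05, 10.30 and 10.24 and 10.20, 10.01 and 10.06. The first differed by 3.60 (SE 0.19, adjusted p = 4.13e-15) and the second by -0.11 (SE 0.16, adjusted p = 0.602). At D7 the 2 Psmc5 probes were called in opposite directions, with 3.40 and -0.46. Psmd7, the partner of Psmd14 in the lid, differed by 2.07 (SE 0.33, adjusted p = 5.54e-06) on ILMN_1220284 and by 0.33 (SE 0.13, adjusted p = 0.036) on ILMN_2630438 at D3. Where on its transcript each probe lies was not analysed here, and the sizes of the core differences depend on which probe stands for a gene.

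**Figure D5:**
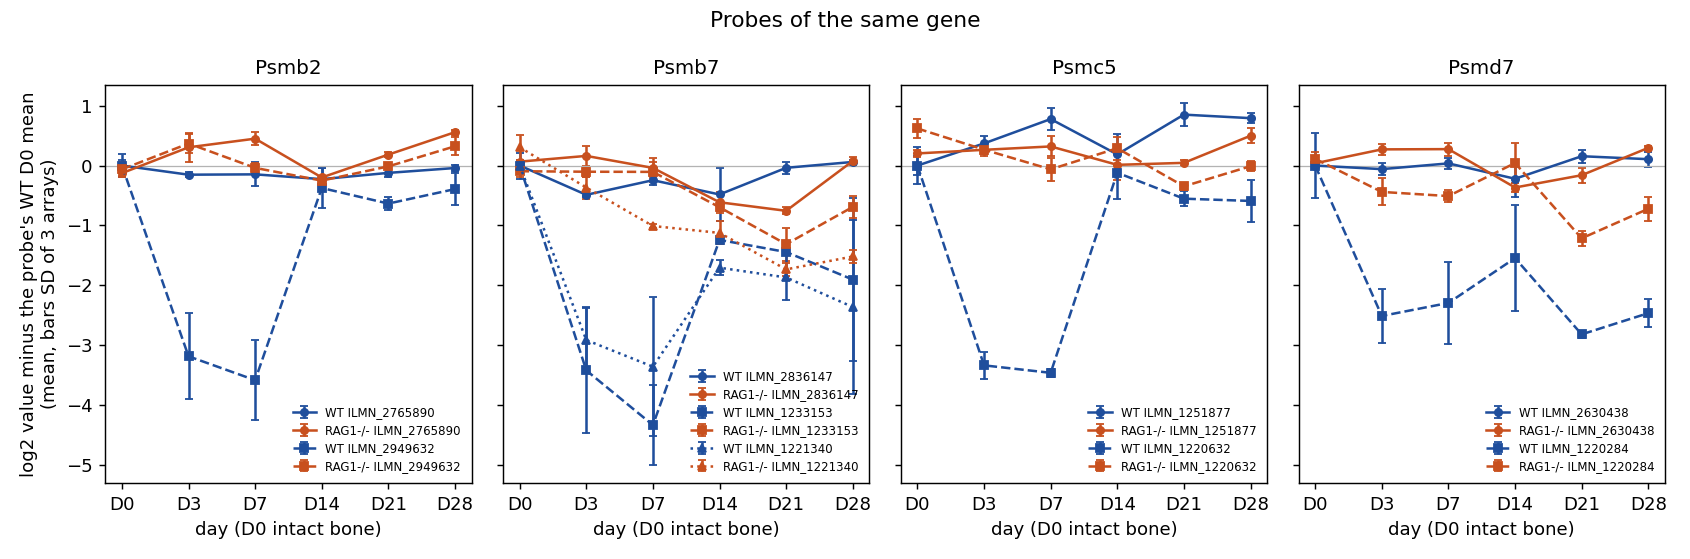
Change of each tested probe of Psmb2, Psmb7, Psmc5 and Psmd7 from its own WT D0 mean (log2, mean and SD of 3 arrays) against day, in WT and RAG1-/-, with solid lines for the probe of the gene with the highest mean over the 36 arrays. In WT, ILMN_2949632 (Psmb2), ILMN_1233153 and ILMN_1221340 (Psmb7), ILMN_1220632 (Psmc5) and ILMN_1220284 (Psmd7) lie more than 2 below their D0 mean at D3 and D7, while the remaining probe of each gene stays within 1 of it.

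In intact bone, 11 tested members were higher and 2 lower in RAG1-/- (13 of 42, 31%, background 12.6% and 6.72%, or 19.3% in either direction). Psmb1 stood out. It read 8.46, 8.69 and 8.68 in WT and 10.46, 10.27 and 10.37 in RAG1-/- at D0, far apart, with a difference of 1.76 (SE 0.10, adjusted p = 2.94e-13). Psmb5 read 6.07, 6.93 and 5.12 in WT and 7.38, 7.57 and 7.42 in RAG1-/- (1.42, SE 0.50, adjusted p = 0.0443), and its WT arrays were spread over more than the difference itself. Psmd14 read 4.47, 4.55 and 4.38 in WT, at the floor, and 6.08, 5.50 and 5.65 in RAG1-/- (1.28, SE 0.34, adjusted p = 0.00794). Those called lower were Psme3 and the Psmb10 probe ILMN_2757870, at 8.55, 8.55 and 8.78 in WT and 7.91, 7.77 and 7.89 in RAG1-/- (-0.77, SE 0.13, adjusted p = 4.33e-05). The count of 13 fell to 8 without WT D0 replicate 1 or 3, to 6 without RAG1-/- D0 replicate 1 or 2 and to 8 without replicate 3. At D0, 7 of 7 tested erythroid markers were lower in RAG1-/- (median -5.01), and of 8 osteoblast markers 5 were higher and 2 lower (median 1.34). Their part in these differences was not tested.

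At D14 few members passed, with 2 higher and 1 lower (3 of 42, 7.14%, background 2.33% and 1.66%, or 3.99%). The higher ones were Psmd7 ILMN_1220284, at 4.77, 6.46 and 6.07 in WT and 7.49, 6.98 and 7.59 in RAG1-/- (1.59, SE 0.33, adjusted p = 0.00348), and Psma4, at 9.10, 9.75 and 9.99 and 10.37, 10.21 and 10.36 (0.70, SE 0.18, adjusted p = 0.0181). The brighter Psmd7 probe, ILMN_2630438, was not called, with group means of 9.05 in WT and 8.91 in RAG1-/-. Psmb3 was the lower one, at 10.08, 10.16 and 10.12 in WT and 9.66, 9.61 and 9.57 in RAG1-/- (-0.50, SE 0.13, adjusted p = 0.0256). In all 3 probes the groups did not overlap. Without the arrays labelled WT D14 replicates 2 and 3, the difference was 2.59 for Psmd7 (adjusted p = 5.61e-05), 1.22 for Psma4 (adjusted p = 0.000184) and -0.46 for Psmb3, which no longer passed (adjusted p = 0.131). The count was 1 without RAG1-/- D14 replicate 1 or 3, 7 (4 higher and 3 lower) with replicate 1 as the only WT array, whose spread is then taken from the other groups, 15 with array weights and 0 with limma on the 6 arrays alone, while the methods' t-test called 1 after adjustment.

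At D21, 5 members were higher and 6 lower (11 of 42, 26.2%, background 14.4% and 8.94%, or 23.3%), a share near the background. Psmd7 ILMN_1220284 read 4.51, 4.55 and 4.43 in WT, at the floor, and 6.21, 6.13 and 5.96 in RAG1-/- (1.60, SE 0.33, adjusted p = 0.000564). Psma4 read 9.12, 9.30 and 8.78 in WT and 10.08, 10.08 and 10.03 in RAG1-/- (1.00, SE 0.18, adjusted p = 0.000102). Both were higher in every RAG1-/- array, which their choice required. On the other side, Psmc5 ILMN_1251877 read 10.65, 10.88 and 10.50 in WT and 9.88, 9.92 and 9.81 in RAG1-/- (-0.81, SE 0.16, adjusted p = 0.000357). Psmb7 ILMN_2836147 read 8.56, 8.49 and 8.67 in WT and 7.88, 7.89 and 7.79 in RAG1-/- (-0.72, SE 0.16, adjusted p = 0.00112), so that RAG1-/- was the lower genotype in all arrays of both probes. The other tested probes of Psmd7, Psmc5 and Psmb7 lay on the other side at D21, and none was called. WT and RAG1-/- means were 9.43 and 9.11 for Psmd7 ILMN_2630438 and 7.38 and 7.58 for Psmc5 ILMN_1220632. They were 7.75 and 7.88 for Psmb7 ILMN_1233153 and 7.03 and 7.17 for Psmb7 ILMN_1221340. The count was 7 without WT D21 replicate 1 and without RAG1-/- D21 replicate 1 or 3.

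By D28 the core was again higher in RAG1-/-. Then 19 members (45.2%) were higher and 0 lower, against 19.1% and 9.19% of all tested probes (28.3% in either direction), with 11 of 15 core probes (median 0.65) and 6 of 16 regulatory particle probes (median 0.35). Psmd7 ILMN_1220284 read 4.76, 5.12 and 4.66 in WT and 6.46, 6.49 and 6.82 in RAG1-/- (1.74, SE 0.33, adjusted p = 0.000194). Psmc1 read 5.38, 5.84 and 6.79 and 7.93, 7.75 and 7.49 (1.72, SE 0.23, adjusted p = 2.31e-06), and Psma7 ILMN_2793488 7.73, 8.29 and 7.69 and 9.37, 9.18 and 9.25 (1.37, SE 0.24, adjusted p = 7.57e-05). RAG1-/- arrays lay above WT arrays in each of them, which the choice of these members required. The count was 12 without RAG1-/- D28 replicate 1 and by the methods' t-test after adjustment, 11 in a fit of the 6 arrays alone and 10 with array weights.

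The change after fracture was then followed within each genotype, with the D0 pool shared by the 5 comparisons. In WT, 8 members rose and 24 fell at D3 (background 21.6% and 21.5%, or 43.2%) and 8 rose and 23 fell at D7 (20.9% and 21.2%, or 42.2%). Core probes made up 13 of those that fell at D3 and 11 at D7, with medians of -1.07 and -0.97, while regulatory particle probes had medians of -0.17 and -0.07, with 3 rising and 6 falling at D3. Psma7 ILMN_2793488 went from 8.46, 8.58 and 8.57 to 5.22, 4.51 and 4.64 at D3 (-3.74, SE 0.24, adjusted p = 1.83e-13). Only Psmb1 among the core probes rose at both days, from 8.46, 8.69 and 8.68 to 9.12, 9.22 and 9.12 at D3 (0.54, SE 0.10, adjusted p = 8.02e-05). Psmd10 ILMN_3003308 went from 8.39, 7.99 and 8.32 to 9.62, 9.47 and 9.47 (1.29, SE 0.16, adjusted p = 7.93e-08), and Psmd13 and Psmd4 rose by 1.05 and 0.62. In WT, 7 tested members had means at or under 4.72 at D3 and 7 at D7, where the floor limits the size of a fall, and none had in RAG1-/- at these days.

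Later in WT, 2 members rose and 10 fell at D14 (background 16% and 11.1%, or 27.1%), 6 rose and 10 fell at D21 (11.5% and 11.6%, or 23.1%) and 5 rose and 12 fell at D28 (10.8% and 13.4%, or 24.2%). Psmb6 went from 10.00, 9.84 and 9.69 at D0 to 10.27, 10.13 and 10.21 at D14 (0.36, SE 0.12, adjusted p = 0.0251), and that call was lost with replicate 1 as the only WT D14 array (adjusted p = 0.0789). Psmb1 stayed above intact bone, at 9.96, 9.84 and 9.98 at D28 (1.31, SE 0.10, adjusted p = 1.62e-10), and rose at D14 and D21 too, by 1.03 and 1.02. Psmd7 ILMN_1220284 read 7.63, 7.62 and 6.69 at D0 and 4.51, 4.55 and 4.43 at D21, down to the floor (-2.82, SE 0.33, adjusted p = 1.68e-07). The brighter Psmd7 probe, ILMN_2630438, did not pass at D21 (0.16, SE 0.13, adjusted p = 0.445). Psme3 fell at all 5 days, with changes of -0.55 to -1.22. A fit of the 6 arrays alone gave 4 changed members at D14, 8 at D21 and 3 at D28, and the count at D14 was 9 with replicate 1 as the only WT D14 array.

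In RAG1-/- callus, 6 members rose and 0 fell at D3 (background 4.95% and 5.95%, or 10.9%) and 8 rose and 2 fell at D7 (5.89% and 5.77%, or 11.7%). Psmb4 went from 11.91, 11.79 and 11.82 at D0 to 12.68, 12.65 and 12.56 at D7 (0.79, SE 0.11, adjusted p = 1.4e-05), and Psmb6 from 10.02, 10.14 and 10.05 to 10.56, 10.69 and 10.42 at D3 (0.49, SE 0.12, adjusted p = 0.00663). Both rose in every array, which their choice required. Those that fell at D7 were Psmc5 ILMN_1220632 and Psmc2, with changes of -0.68 and -0.41.

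At D14, 1 member rose and 15 fell in RAG1-/- (background 6.06% and 6.48%, or 12.5%), and at D21, 2 rose and 14 fell (9.08% and 9.54%, or 18.6%). In the core, 7 of 15 probes fell at D14 and 8 at D21, and in the regulatory particle 7 of 16 and 5, with medians of -0.54 at both days for the core and of -0.42 and -0.52 for the regulatory particle. Psmb1 went from 10.46, 10.27 and 10.37 at D0 to 9.63, 9.59 and 9.65 at D14 (-0.75, SE 0.10, adjusted p = 4.14e-06), the opposite of its course in WT. Psmb7 ILMN_1221340 read 9.02, 9.44 and 9.17 at D0 and 7.06, 7.29 and 7.16 at D21 (-2.04, SE 0.45, adjusted p = 0.00131), and Psmc1 7.94, 7.78 and 7.54 and 6.97, 6.82 and 6.97 at D14 (-0.83, SE 0.23, adjusted p = 0.0123). All of these arrays were below those of D0, which the choice of Psmb7 and Psmc1 required. Neutrophil markers fell as well, 7 of 7 at D14 (median -3.51) and 7 of 7 at D21 (median -2.20). They also fell when more members rose than fell, 6 of 7 at D3 and at D7 (both medians -1.55) and 7 of 7 at D28 (median -3.14). At D21, 5 of 8 skeletal muscle markers fell and 6 of 8 osteoblast markers rose. The part of these cell types in the changes was not tested. At D28, 6 rose and 2 fell (6.56% and 6.69%, or 13.2%), and the core stood at 0.57 in the centred average, near its D0 value of 0.63.

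The counts in RAG1-/- depended on the fit. With the 6 arrays of a comparison alone they were 14 at D3, 21 at D7, 26 at D14, 32 at D21 and 20 at D28, and the median SD of members was smaller in RAG1-/- than in WT groups, as given above. Leaving out RAG1-/- D3 replicate 2 gave 2 members at D3, leaving out any D7 array or RAG1-/- D0 replicate 2 gave 6 at D7, and leaving out RAG1-/- D0 replicate 1 gave 10 at D14.

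Whether the change after fracture differed between the genotypes was tested for each probe with limma's F test of genotype by day. It did for 35 of 42 members (83.3%), against 48% of all tested probes. Without D3 and D7 it did for 18 members, a count with no background, since the share of all tested probes was not computed for that run. With all days, the adjusted p among the catalytic subunits was 4.09e-11 for Psmb6 and 0.00697 for Psmb5. It was 5.81e-06 and 6.11e-06 for the 2 Psmb10 probes. Psmd1, Psmd6, Psmd8, the 2 dimmer Psmd10 probes and both Psme1 probes did not pass.

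Over all 6 days, with the means of the 12 pools as the samples and the day as a block, 2 members were higher in RAG1-/- and 0 lower. That is 2 of 42 (4.76%), against 4.23% and 1.52% of all tested probes (5.74% in either direction), a share no higher than the background. These are Psmd7 ILMN_1220284, with 1.48 (SE 0.25, adjusted p = 0.0413), and Psma4, with 1.50 (SE 0.36, adjusted p = 0.0465), and RAG1-/- was higher at 6 of 6 days in both. This Psmd7 probe was near the floor in WT at D3, D7, D21 and D28, with means of 4.80, 5.02, 4.49 and 4.85. The brighter Psmd7 probe, ILMN_2630438, was not called. Its means were lower in RAG1-/- at D14 (8.91 against 9.05) and D21 (9.11 against 9.43) and higher at the other days. At an unadjusted p under 0.05, 20 members would be counted, and the share of all tested probes at that limit was not computed. Both calls depended on the days included. No member passed without D0, D3, D7, D21 or D28, 6 passed without D14, and none passed without replicate 1 of every group. With replicate 1 as the only WT D14 array, the differences were 1.65 for Psmd7 ILMN_1220284 and 1.58 for Psma4. In the fit with all arrays, Psmb4, at 0.91 (SE 0.23, adjusted p = 0.051), came next. Among days over both genotypes, 0 members and 0% of all tested probes differed by limma on the pools, and 3 members did at an unadjusted p under 0.05.

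Genes around the proteasome were taken as 3 lists. Of 8 tested core assembly and other proteasome proteins, 2 were higher and 1 lower in RAG1-/- at D3 (background 26.9% and 21%), a share no higher than that of all tested probes, with a list median of 0.22. Pomp, which helps the core to assemble, was higher by 1.14 (SE 0.13, adjusted p = 4.94e-08), Adrm1, a ubiquitin receptor of the base, by 1.57 (SE 0.39, adjusted p = 0.0014), and Psmf1, an inhibitor of the core, was lower, with -0.66 (SE 0.14, adjusted p = 0.000196). Of the 2 tested transcription factor genes, Nfe2l1, which drives proteasome genes when the proteasome is impaired, was higher at D3 (0.99, SE 0.16, adjusted p = 6.76e-06) and D7 and lower at D21 (-1.0, SE 0.16, adjusted p = 2.83e-05) and D28. Nfe2l1 thus lay on opposite sides early and late. The other factor gene, Nfe2l2, was dim, with group means of 4.47 to 5.52. Between genotypes it passed at D7 alone, where it was lower in RAG1-/- (-0.96, SE 0.40, adjusted p = 0.0485). In the assembly list, 2 genes were higher and 2 lower at D7 (background 27.4% and 19.3%). Pomp and Adrm1 were higher, by 1.19 and 2.42, and Shfm1 and AI314180 were lower, with -0.59 and -1.27.

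In the ubiquitin list, 4 of 5 tested genes were higher in RAG1-/- at D3 and 5 of 5 at D7, with medians of 2.26 and 1.63 (background 26.9% and 27.4%). Ubb, which encodes chains of ubiquitin, had group means of 13.18 at D0 and 9.08 at D3 in WT, and 13.17 and 13.04 in RAG1-/-. It fell in WT at D3, with a change of -4.10 (SE 0.15, adjusted p = 1.61e-18), while RAG1-/- D3 did not pass against D0, and the genotypes differed by 3.96 (SE 0.15, adjusted p = 4.98e-18) at D3 and 3.22 (SE 0.15, adjusted p = 5.91e-16) at D7. Vcp, the unfoldase that hands substrates to the proteasome, passed at D0, D7, D21 and D28 but not at D3 (0.16, SE 0.11, adjusted p = 0.242). It was higher in WT at D3 than at D0, by 0.44 (SE 0.11, adjusted p = 0.00147), unlike Ubb.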

How the data were processed

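RNA from pools of 5 mice was hybridised to Illumina MouseRef-8 v2 arrays, 3 arrays for each of 12 groups. Per the study's methods, the authors pre-processed the bead data with beadarray and quantile normalized them with lumi, and the deposited values are log2 intensities with no counts behind them, so the number of arrays limits the precision. Quantile normalization gives every array the same distribution, so changes are relative to the other probes. Gene symbols came from a deposited probe table, and 264 columns of per-array values in the other deposited tables and this one, named by chip position, were not used. Detection calls were not used either.

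Probes with a mean over 36 arrays above the median (4.72) were tested, 12848 of 25697. A group-means model with 12 groups was fitted with limma 3.58.1 in R 4.3.3, with contrasts between genotypes at each day and of each day against D0, and an F test of genotype by day. P-values were adjusted by the Benjamini-Hochberg method over all 12848 probes, and a probe was called at an adjusted p under 0.05. A second limma fit used the means of the 12 pools with day as a block and 5 residual degrees of freedom. The fits were tried first on simulated data, in which a probe had the same spread in all groups and mice did not differ. There, limma at D3 found 4%, 38%, 92% and 100% of log2 changes of 0.5, 1, 2 and 4. A probe that did not pass may therefore still differ. The real groups differed in spread, so these shares are only a rough guide. Figures were drawn with Python 3.11.15 and matplotlib 3.10.9.

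Values in every array were given for Psmb5, Psmb6, Psmb7, Psmb10 and Psme1 to Psme4, for members called over all days, for up to 3 called members in each direction with the largest non-overlapping difference between genotypes at a day and for up to 2 in a change against D0. For members picked by a non-overlapping difference, the separation of their arrays follows from the choice and is no added support. Other array values and the related genes were chosen after their values were seen. The members and lists were chosen with earlier results of these data known. Alternatives were no filter, a stricter filter, the brightest probe per gene, array weights, a fit of the compared arrays alone, the methods' t-test, a replicate block, leaving out single arrays and, for the pools, single days. A further pair was chosen after seeing the data: leaving out the arrays labelled WT D14 replicates 2 and 3, and the F test without D3 and D7. Promoter windows came from RefSeq (GRCm38.p6).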

Additional observations from a re-analysis of the deposited data

Results flagged for a closer look

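The change after fracture differed between RAG1-/- and WT for 35 of 42 tested members by limma's F test over all 6 days, against 48% of all tested probes, and the catalytic and activator genes among them are listed here because they differed between the genotypes in this test. For the active-site subunits, the adjusted p was 4.09e-11 for Psmb6, 0.00697 for Psmb5 and 0.000349, 7.7e-07 and 0.00432 for the Psmb7 probes ILMN_2836147, ILMN_1233153 and ILMN_1221340. The Psmb10 probes ILMN_2914843 and ILMN_2757870 had adjusted p of 5.81e-06 and 6.11e-06, with WT above RAG1-/- at D3 and D7. Among the activators, the adjusted p was 5.22e-06 for Psme3, 6.19e-05 for Psme4 and 0.0143 for Psme2. Psme3 fell in WT at all 5 days after fracture and passed the test against D0 on no day in RAG1-/-.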

How the results depend on the processing

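Direction was followed for 68 differences, those picked by size in a comparison or called over all days. None of them turned under any alternative run, and the other differences given in the text were not followed. This outcome was largely fixed by the choice and is no added support. Differences picked by size had arrays that did not overlap, and those called over all days had the same sign at every day. The count of members that differed at D3 stayed between 29 and 38 and at D7 between 24 and 32. With the brightest probe of each gene, the count was 10 for WT D21, 11 for WT D28, 10 for RAG1-/- D21 and 5 for RAG1-/- D28 against D0. Array weights gave 15 between genotypes at D14 and 10 at D28, 6 for WT D28 and 21, 23, 28, 34 and 19 for RAG1-/- D3 to D28. A fit of the compared arrays alone gave 0 between genotypes at D14 and 11 at D28, 4, 8 and 3 for WT D14, D21 and D28, and 14, 21, 26, 32 and 20 for RAG1-/- D3 to D28. The methods' t-test after adjustment gave 1 between genotypes at D14 and 12 at D28, 4 and 8 for WT D14 and D28, and 20, 30 and 16 for RAG1-/- D7, D21 and D28. Over all days the count of 2 was 0 without a filter, 0 with the stricter filter, 1 with the brightest probes, 0 without D0, D3, D7, D21, D28 or both D3 and D7, and 6 without D14. With replicate 1 as the only WT D14 array, it was 9, and the count between genotypes at D14 was 7. The F test gave 18 without D3 and D7. In none of the alternative runs was the share of all tested probes counted, so these counts have no background. Leaving out 1 array gave 6 to 11 for the genotypes at D0, 32 to 38 at D3, 29 to 30 at D7, 1 to 4 at D14, 7 to 9 at D21 and 12 to 18 at D28. In WT it gave 28 to 35, 28 to 31, 9 to 11, 11 to 14 and 12 to 16 for D3 to D28, and in RAG1-/- 2 to 5, 6 to 8, 10 to 13, 11 to 13 and 6 to 7. Leaving out a replicate number gave 25 to 32 for the F test, 0 to 3 over all days and 0 to 0 among days. The cause of these moves was not tested, other than that fewer arrays, days or probes enter some of the fits. The replicate numbers do not pair the arrays: same-numbered arrays of different groups had a median correlation of -0.003 in their deviations, 1 of 198 exceeded 0.1, and 8 of 36 arrays were nearest to their own number. With the replicate number as a block, the counts between genotypes were 12, 38, 31, 3, 9 and 19 from D0 to D28, 36 for the F test, and for the changes against D0 32, 31, 12, 15 and 16 in WT and 6, 10, 16, 16 and 7 in RAG1-/-. Of the named differences fitted with the block, 65 kept their side of the threshold and the call of Psmb5 at D0 was lost. More calls of named differences were lost in other runs. Leaving out arrays or replicate numbers kept 354 and lost 48, with a difference counted once for each fit. A fit of the compared arrays alone kept 57 and lost 9, and the methods' t-test kept 58 and lost 8. Array weights kept 64 and lost 2, and no filter kept 64 and lost 4. Each pool is 1 set of 5 mice, so differences between mice were not measured within a day. Dim probes near 4.72 have only a bound.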
